A study of Mus musculus with 4 samples.

Results

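*Atf5* and 9 other genes of the integrated stress response were examined in protrusions and cell bodies of YUMM1.7, a mouse melanoma line with activated *Braf*. The 10 genes were chosen by symbol from a table of 16537 genes. They are the basic leucine zipper (bZIP) transcription factor genes *Atf3*, *Atf4*, *Atf5*, *Ddit3* and *Xbp1*, the target genes *Chac1*, *Trib3* and *Asns*, and the phosphatase subunit genes *Ppp1r15a* and *Ppp1r15b*. The question was whether *Atf5* mRNA was distributed between the fractions as the mRNAs of its relatives and their targets were.

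Cells were grown overnight on membranes whose underside carried fibronectin and whose pores admit protrusions but not cell bodies. Protrusions (2 libraries) were lysed from the cleaned membrane and cell bodies (2 libraries) were scraped from its top, each replicate being collected over 6 inserts. Both fractions came from the same single line, labelled wild type, with no drug or stress treatment. The sequencing used total RNA depleted of rRNA, and *Atf5* was taken up by the study as a candidate because of its values in these same libraries, so its direction here is not independent evidence.

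The integrated stress response begins with kinases that phosphorylate the translation initiation factor eIF2 when amino acids run short, misfolded protein builds up in the endoplasmic reticulum (ER), heme is lacking or a virus replicates. Translation then falls in general, while mRNAs with upstream open reading frames, those of *Atf4*, *Atf5* and *Ddit3* among them, are translated better. ATF4, alone or with other bZIP proteins, switches on genes of amino acid supply and of cell death, and the product of *Ppp1r15a* brings a phosphatase to eIF2 and ends the response. In this pathway mRNA level and protein output can part, and only mRNA was measured here.

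The response element through which ATF4 and its partners act is shown first, since it is the sequence by which the targets are known. The C/EBP-ATF element was searched as TGATGNAAN on both strands, from 250 bases before to 50 bases after each start site, in promoters from RefSeq (GRCm38.p6). A promoter was listed for 9 of the 10 genes, and 4 of the 9 held a match, against 2.9% of the 11730 genes of the expression table with a listed promoter. Each is printed on the strand that carries the match, which is in capitals:
*Asns* promoter: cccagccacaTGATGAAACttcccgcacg
*Chac1* promoter: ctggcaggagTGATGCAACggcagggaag
*Trib3* promoter: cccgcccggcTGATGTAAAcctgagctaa
*Atf3* promoter: gcggacttggTGATGCAAGtgcgagaagg

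The capitals lie at chr6:7693224-7693232 for *Asns*, chr2:119351048-119351056 for *Chac1*, chr2:152344039-152344047 for *Trib3* and chr1:191183436-191183444 for *Atf3*. The match was on the strand of the gene in *Asns* and on the opposite strand in the other genes, and it lay before the start site in all but *Trib3*, where it lay just after it. These letters were not found in the windows of *Atf4*, *Atf5*, *Ddit3*, *Xbp1* or *Ppp1r15a*. The genes with a match are therefore the 3 targets and *Atf3*. Among these 4 genes none passed the test between the fractions described below, in which 7.25% of all tested genes were called. With so few genes called, this count says nothing about genes with a match.

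Values are in TPM, each a share of a library's transcripts corrected for gene length. In these bulk fractions fewer contributing cells and less RNA per cell cannot be told apart. Differences are log2 fold changes, protrusions over cell bodies, on log2(TPM + 0.5). They were tested with limma in the 11400 genes that averaged 1 TPM or more and adjusted by Benjamini-Hochberg. A gene was called at an adjusted p under 0.05. The labels call the replicates biological and do not say how their cultures were kept apart. Reads per gene were recovered from the TPM ratios, and 25854888 to 30994908 reads per library were assigned to genes.

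A set of 30 genes typical of liver summed to 108 TPM in protrusions of replicate 1 and 4.61 TPM in protrusions of replicate 2, against 2.17 and 3.78 TPM in cell bodies of replicates 1 and 2. All 30 were highest in protrusions of replicate 1, where *Alb*, the albumin gene, was at 28.4 TPM. Results that rest on that library are given with and without it. Of 10 melanocyte markers listed, 5 were among the deposited genes, and *Sox10*, *Tyrp1*, *Dct*, *Mlana* and *Kit* were not. The 5 present summed to 44.1 and 51.5 TPM in protrusions, against 61.9 and 84.3 TPM in cell bodies. Most of this was *Gpnmb*, at 37.8 and 45.1 TPM in protrusions, against 56.3 and 77.7 TPM in cell bodies. Of the others, *Mitf*, the lineage's master regulator, was at 5.45 and 6.17 TPM in protrusions, against 5.12 and 5.93 TPM in cell bodies, while the pigment genes *Tyr*, *Pmel* and *Mc1r* were at or near 0, at no more than 0.762 TPM in any library.

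*Atf5* was higher in protrusions, and it was the only 1 of the 10 genes called. It encodes a bZIP factor of the ATF4 branch that is known for survival of stressed cells and, in mammalian cells, for the mitochondrial unfolded protein response. *Atf5* was at 55.1 TPM in replicate 1 and 58.4 TPM in replicate 2 of the protrusions, against 32.6 TPM in replicate 1 and 20.1 TPM in replicate 2 of the cell bodies. Both protrusion libraries were above both cell body libraries, and the protrusion values lay closer together than the cell body values.

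*Atf5* averaged 56.8 ± 2.34 TPM in protrusions and 26.4 ± 8.87 TPM in cell bodies (SD, n = 2 each). Its log2 fold change was 1.13 (SE 0.23, 95% interval 0.56 to 1.71), or 2.19-fold (1.47 to 3.27), at adjusted p = 0.0479 in limma and 0.00219 once the replicate number entered the fit as a block. It stood at rank 56 of the 11400 genes by log2 fold change. Among these genes 102, or 0.895%, had a log2 fold change of at least 1.

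The adjusted p of *Atf5* lay near the threshold. Over 14 alternative settings it ran from 0.00219 to 0.216, and 7 of the 14 left it under 0.05, while the log2 fold change kept its sign and ran from 0.79 to 1.48. Without protrusions of replicate 1, the library with the liver genes, the log2 fold change of *Atf5* was 1.17. Without each of the other libraries it was 0.79 to 1.48. The call was lost in each of these fits, in which few or no genes at all were called. With no minimum on TPM and with no variance trend limma called 0 genes in either direction. The loss of the call in these settings therefore says nothing about *Atf5* in particular. The *Atf5* difference was thus as large without the library that held the liver genes.

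Within replicates, the log2 ratio of protrusions over cell bodies for *Atf5* was 0.75 in replicate 1 and 1.52 in replicate 2. The 2 ratios shared their sign and differed in size, most of which came from the cell body libraries. Over all tested genes the SD of this ratio was 0.443 in replicate 1 and 0.565 in replicate 2. *Atf5* stood above 96.3% of genes in replicate 1, with 422 genes higher, and above 99.8% in replicate 2, with 24 genes higher.

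**Figure D1:**
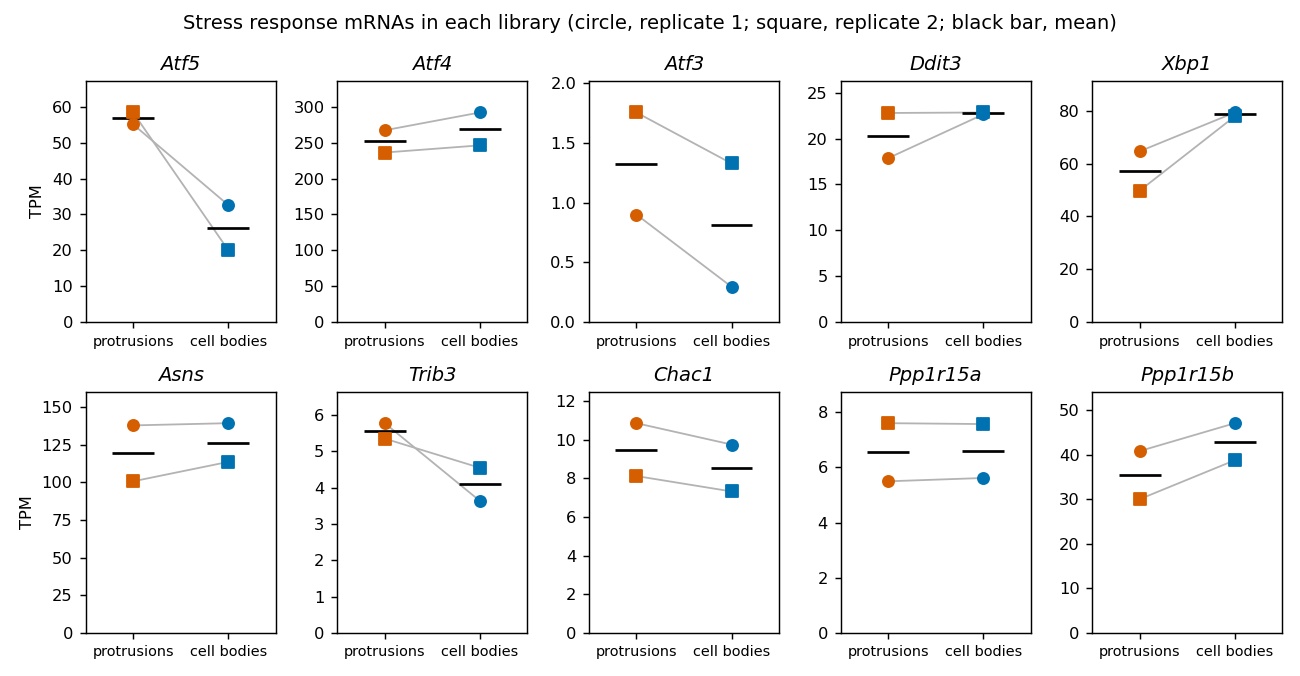
TPM of the 10 genes in the 4 libraries, each gene in its own panel with its own linear axis. Protrusions are in orange, left of cell bodies in blue, with circles for replicate 1 and squares for replicate 2. Black bars mark the mean, and grey lines join the libraries of a replicate. *Atf5* stands at 55.1 and 58.4 TPM in protrusions, against 32.6 and 20.1 TPM in cell bodies, while most other genes have overlapping libraries.

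*Atf4*, the central effector of the response, did not follow *Atf5*. It was at 267 and 236 TPM in protrusions, against 292 and 246 TPM in cell bodies, and the libraries of the fractions overlapped. With 5521 to 7788 reads per library it was among the best measured of the 10 genes. Its log2 fold change was -0.09 (SE 0.13, 95% interval -0.42 to 0.24, adjusted p = 0.669), an interval that ends below the whole interval of *Atf5*.

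*Ddit3*, which encodes CHOP, the factor tied to cell death under lasting ER stress, was at 17.9 and 22.8 TPM in protrusions, against 22.6 and 22.8 TPM in cell bodies. The low value was that of protrusions in replicate 1, the other 3 libraries stood close together, and the fractions overlapped. For *Ddit3* the log2 fold change was -0.17 (SE 0.16, 95% interval -0.57 to 0.23, adjusted p = 0.515).

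*Atf3*, an early stress gene that can repress transcription, was the least abundant. It was at 0.900 and 1.75 TPM in protrusions, against 0.295 and 1.33 TPM in cell bodies, from 24 and 59 reads in protrusions and 9 and 34 reads in cell bodies. Replicate 2 was the higher in both fractions, and the fractions overlapped. The log2 fold change of *Atf3* was 0.56 with a 95% interval from -0.64 to 1.76 (SE 0.49, adjusted p = 0.474), so that it held the whole range from no difference to that of *Atf5*.

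*Xbp1*, which encodes the bZIP factor that the ER stress sensor IRE1 activates by splicing its mRNA, moved the other way in its values. It was at 64.6 and 49.7 TPM in protrusions, against 79.3 and 77.9 TPM in cell bodies. Both protrusion libraries were below both cell body libraries. Its log2 fold change was -0.47 (SE 0.15, 95% interval -0.85 to -0.09), which did not pass without the block (adjusted p = 0.110) and passed with it (adjusted p = 0.0351, limma). The table has 1 value per gene, so spliced and unspliced *Xbp1* mRNA cannot be told apart.

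Among the targets, *Trib3*, a pseudokinase gene whose product restrains ATF4 and CHOP, was at 5.78 and 5.35 TPM in protrusions, against 3.64 and 4.55 TPM in cell bodies. Its libraries did not overlap, with the protrusions higher. *Trib3* had a log2 fold change of 0.41 (SE 0.20, 95% interval -0.08 to 0.90) and passed neither without the block (adjusted p = 0.219) nor with it (adjusted p = 0.215).

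*Chac1*, which encodes an enzyme that degrades glutathione, was at 10.9 and 8.12 TPM in protrusions, against 9.75 and 7.32 TPM in cell bodies. Replicate 1 was the higher in both fractions, and the fractions overlapped. The log2 fold change of *Chac1* was 0.14 (SE 0.22, adjusted p = 0.694), with a 95% interval of -0.40 to 0.69.

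*Asns*, the asparagine synthetase gene, was at 138 and 101 TPM in protrusions, against 139 and 114 TPM in cell bodies. Here too replicate 1 was the higher in both fractions and the fractions overlapped. *Asns* had a log2 fold change of -0.09 (SE 0.19, 95% interval -0.56 to 0.37, adjusted p = 0.768).

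The phosphatase subunits gave no call. *Ppp1r15a*, which encodes the stress-induced subunit GADD34, was at 5.49 and 7.60 TPM in protrusions, against 5.61 and 7.57 TPM in cell bodies. The fractions of a replicate were nearly alike, and the replicates differed. Its log2 fold change was -0.01 (SE 0.24, 95% interval -0.60 to 0.57, adjusted p = 0.981).

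*Ppp1r15b*, which encodes the constitutive subunit CReP, was at 40.9 and 30.1 TPM in protrusions, against 47.1 and 38.8 TPM in cell bodies. In each replicate protrusions were below cell bodies, but across replicates the libraries overlapped. Its log2 fold change was -0.28 (SE 0.19, 95% interval -0.75 to 0.19), with an adjusted p of 0.352, and of 0.176 with the replicate block.

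**Figure D2:**
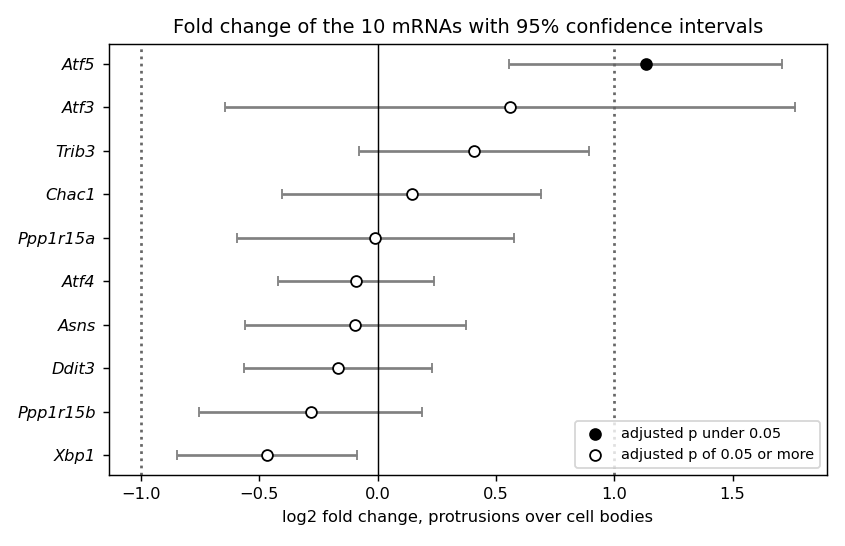
Log2 fold change (protrusions over cell bodies) of the 10 genes, with 95% intervals from limma, filled points for an adjusted p under 0.05 and dotted lines at a 2-fold difference either way. *Atf5* at 1.13 is the only filled point, and the intervals of the others reach 0 except that of *Xbp1*, from -0.85 to -0.09.

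All 10 genes passed the minimum on TPM. The 1 gene called higher compares with 2.99% of all tested genes called higher, and the 0 genes called lower with 4.25% called lower, or 7.25% called in either direction. At an unadjusted p under 0.05, 2 of the 10 passed, *Atf5* and *Xbp1*, against 31.3% of all tested genes. With voom on the recovered reads 1 of the 10, *Atf5*, was called higher and 0 lower, against 775 and 889 of 11400 genes. With the replicate block limma called 1 of the 10 higher, against 8.08% of all genes, and 1 lower, *Xbp1*, against 13.3%.

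The median log2 fold change of the 10 genes was -0.05, against -0.07 over all tested genes. Both medians lay near 0, and that of the 10 genes turned to 0.02 with voom and 0.03 with median-centred libraries. Libraries of the fractions did not overlap for 3 of the 10: *Atf5* and *Trib3* were higher in both protrusion libraries, as were 26.4% of all genes, and *Xbp1* was lower in both, as were 37% of all genes. For 8 of the 10 genes, all but *Atf5* and *Atf3*, the 95% interval lay inside a 2-fold difference either way. An interval that includes 0 does not show equal levels, but for these 8 genes it leaves out a difference of 2-fold or more.

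**Figure D3:**
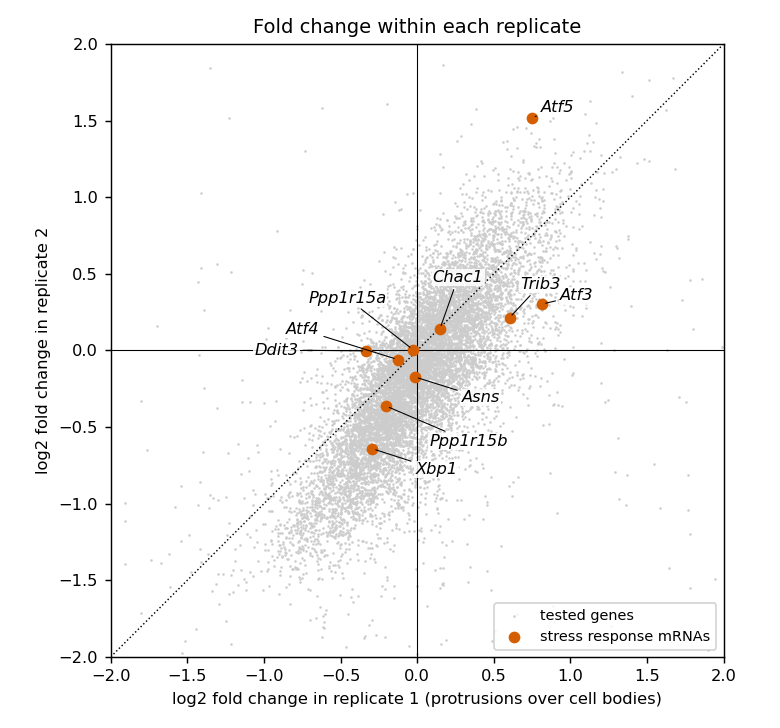
Log2 ratio of protrusions over cell bodies in replicate 1 (horizontal) and replicate 2 (vertical) for all tested genes in grey and the 10 genes in color, with 97 genes outside the axes. *Atf5* lies at 0.75 and 1.52, above the other genes of the response in replicate 2. In replicate 1 *Atf3*, at 0.82 and 0.30, lies above *Atf5*.

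The levels put *Atf5* in another place in each fraction. In protrusions the order by mean TPM was *Atf4*, *Asns*, *Xbp1*, *Atf5*, *Ppp1r15b*, *Ddit3*, *Chac1*, *Ppp1r15a*, *Trib3* and *Atf3*. In cell bodies *Atf5* came after *Ppp1r15b*, at rank 5 in place of rank 4, and the rest of the order was the same. In protrusions *Xbp1* and *Atf5* overlapped, with means that differed by 0.400 TPM, and so did *Ppp1r15a* and *Trib3*. *Chac1* and *Ppp1r15a* did not overlap in protrusions, but their means differed by 2.94 TPM, less than their summed SDs. In cell bodies the neighbours that overlapped were *Atf5* with *Ddit3* and *Chac1* with *Ppp1r15a*.

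Within a library, the ratio of *Atf5* to another gene does not depend on the library's scaling. *Atf5* was at 20.6% and 24.7% of the TPM of *Atf4* in protrusions, against 11.2% and 8.16% in cell bodies. Both protrusion libraries were above both cell body libraries. The mean log2 ratio of *Atf5* to *Atf4* was higher by 1.24 in protrusions, by 0.88 in replicate 1 and by 1.60 in replicate 2. A two-sided exact permutation test gave p = 0.333 (n = 2 each), the smallest that this design allows, so it could not pass at 0.05.

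The same ratio was taken to the other 8 genes. Relative to *Xbp1*, *Atf5* was at 0.853 and 1.17 in protrusions, against 0.412 and 0.258 in cell bodies, a difference of 1.62 in log2 ratio. Relative to *Ddit3* it was at 3.09 and 2.56 in protrusions, against 1.44 and 0.879 in cell bodies, a difference of 1.32. In cell bodies of replicate 2, *Atf5* was thus below *Ddit3*.

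The difference in log2 ratio was 1.24 against *Asns*, 1.44 against *Ppp1r15b*, 1.16 against *Ppp1r15a*, 1.00 against *Chac1* and 0.70 against *Trib3*. For *Trib3* it was 0.09 within replicate 1, so that there *Atf5* and *Trib3* had nearly the same ratio between fractions. In all, 8 of the 9 ratios separated the fractions, each with an exact permutation p of 0.333 (two-sided, n = 2 each). The 9 ratios share *Atf5* and are not independent. *Atf5* alone separated the fractions, so its ratios to genes that differed little restate its own difference. The share of all tested genes whose ratio to *Atf5* separates the fractions was not computed. Against *Atf3* the libraries overlapped, and the difference was 0.14, at -0.85 within replicate 1 and 1.14 within replicate 2.

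The genes whose pattern over the 4 libraries was nearest to that of *Atf5* lay outside the response. By Euclidean distance over the 4 centred log2 values they were *Myl9* (0.104), *Tesk1* (0.140), *Aven* (0.147), *Palm* (0.161) and *Gna12* (0.163). *Myl9*, which encodes a myosin regulatory light chain, was at 7.46 and 8.03 TPM in protrusions, against 4.67 and 2.63 TPM in cell bodies. With 37 to 148 reads per library, *Myl9* passed only with the block (limma, adjusted p = 0.0726 without the block and 0.0136 with it). *Gna12*, which encodes a G protein α subunit, was at 58.5 and 62.6 TPM in protrusions, against 33.9 and 24.2 TPM in cell bodies, levels close to those of *Atf5*.

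Among the other genes of the response, *Trib3* was nearest to *Atf5* at a distance of 1.01, which ranked 2122 of 11399 genes. *Chac1* followed at 1.07 and *Atf4* at 1.28, and *Xbp1* stood far off at rank 8834. These distances describe 4 libraries and were not tested.

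Lists of related genes place the 10 in their pathway, each described by its counts and its median. Over all tested genes, 2.99% were called higher and 4.25% lower, 8.08% and 13.3% with the replicate block, 31.3% had an unadjusted p under 0.05, and the median was -0.07. With voom 775 of the 11400 genes were called higher and 889 lower. The lists share some genes, among them *Dnajc3*, *Oma1*, *Atf6* and *Cebpb*. No list was tested as a set.

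Of the kinases and the eIF2 machinery, 20 of 21 listed genes were tested, with 1 called higher, 1 lower and a median log2 fold change of -0.07. *Ppp1ca*, a catalytic subunit of the phosphatase that the *Ppp1r15* products direct to eIF2, rose: it was at 736 and 715 TPM in protrusions, against 522 and 473 TPM in cell bodies (log2 fold change 0.55, adjusted p = 0.0451). *Dnajc3*, an ER co-chaperone known as an inhibitor of the kinase PERK, fell: it was at 72.3 and 49.0 TPM in protrusions, against 117 and 121 TPM in cell bodies (log2 fold change -0.99, adjusted p = 0.0451). *Oma1*, the inner membrane protease that signals mitochondrial stress to the kinase HRI, had a log2 fold change of -0.62, which did not pass without the block (adjusted p = 0.0677) and passed with it (adjusted p = 0.0210). With the replicate block 2 genes were called higher and 2 lower.

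Of the other bZIP genes, 32 of 37 listed were tested, with 1 called higher, 1 lower and a median log2 fold change of 0.21. *Atf1*, a relative of CREB, rose: it was at 51.6 and 54.7 TPM in protrusions, against 36.1 and 36.2 TPM in cell bodies (log2 fold change 0.55, adjusted p = 0.0489). *Creb3*, an ER membrane factor released by cleavage, fell: it was at 22.6 and 17.3 TPM in protrusions, against 35.3 and 37.2 TPM in cell bodies (log2 fold change -0.86, adjusted p = 0.0443). *Maff*, a small Maf gene, was at 16.9 and 17.1 TPM in protrusions, against 11.1 and 8.87 TPM in cell bodies, and passed only with the block (log2 fold change 0.75, adjusted p = 0.0529 without the block and 0.0147 with it).

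The log2 fold change was positive for 22 of the 32 bZIP genes, against 4912 of the 11400 tested genes. The *Atf5* value of 1.13 was larger than those of the 3 bZIP genes named. With the replicate block 5 bZIP genes were called higher and 3 lower.

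Of the targets of ATF4 and CHOP, 42 of 46 listed were tested, with 0 called higher, 1 lower and a median log2 fold change of -0.08, close to that of all genes. *Eprs*, the glutamyl-prolyl-tRNA synthetase gene, fell: it was at 155 and 124 TPM in protrusions, against 236 and 232 TPM in cell bodies (log2 fold change -0.75, adjusted p = 0.0417). *Sesn2*, a leucine sensor that restrains mTORC1, was at 7.90 and 7.94 TPM in protrusions, against 4.62 and 4.56 TPM in cell bodies, with no overlap (log2 fold change 0.73, adjusted p = 0.0548 without the block and 0.0294 with it). *Tars*, the threonyl-tRNA synthetase gene, was at 153 and 145 TPM in protrusions, against 198 and 212 TPM in cell bodies (log2 fold change -0.46, adjusted p = 0.0591 without the block and 0.0218 with it). In either direction 16 of the 42 targets had an unadjusted p under 0.05, beside 31.3% of all genes. With voom 1 was called higher and 2 lower, beside 775 and 889 of all 11400 genes. With the replicate block 4 targets were called higher and 10 lower, beside 8.08% and 13.3% of all genes.

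The genes of the ER unfolded protein response stood apart from the 10 in their counts. Of 28 tested of 29 listed, 0 were called higher and 11 lower, with a median log2 fold change of -0.64. In either direction 20 of the 28 had an unadjusted p under 0.05. With voom 0 were called higher and 16 lower, beside 775 and 889 of all 11400 genes. With the replicate block 19 were called lower, beside 13.3% of all genes. Without protrusions of replicate 1, the library with the liver genes, the median was -0.82. Without each of the other 3 libraries it was -0.68 to -0.48. With no minimum on TPM or no variance trend 0 were called, as were 0 of all tested genes. After GC correction 3 were called lower, beside 180 of 11311 genes, and the median was -0.63. *Hsp90b1*, the ER chaperone GRP94, fell: it was at 930 and 674 TPM in protrusions, against 1781 and 1789 TPM in cell bodies (log2 fold change -1.17, adjusted p = 0.0349). The disulfide isomerases *Pdia4* (-1.11), *Pdia6* (-1.11) and *Pdia3* (-0.94) and the lectin chaperones *Canx* (-0.91) and *Calr* (-0.61) fell as well, here by log2 fold change, with adjusted p-values of 0.0349 to 0.0383. *Xbp1*, whose product regulates many ER genes, had a smaller difference of -0.47.

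The mitochondrial stress list had 15 of 16 genes tested, with none called in either direction and a median log2 fold change of -0.09. The smallest p-values were those of *Oma1*, of *Yme1l1*, another inner membrane protease (log2 fold change -0.60, adjusted p = 0.0691, and 0.00920 with the block), and of *Tomm20*, an import receptor (0.34, adjusted p = 0.0953). In this list 6 of the 15 genes had an unadjusted p under 0.05, and voom called 0 higher and 1 lower. With the block limma called 0 higher and 2 lower. Without protrusions of replicate 1 the median log2 fold change was -0.06 in the kinase list and 0.12 in the bZIP list. It was then -0.16 in the target list and -0.07 in the mitochondrial list, against -0.08 over all tested genes.

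**Figure D4:**
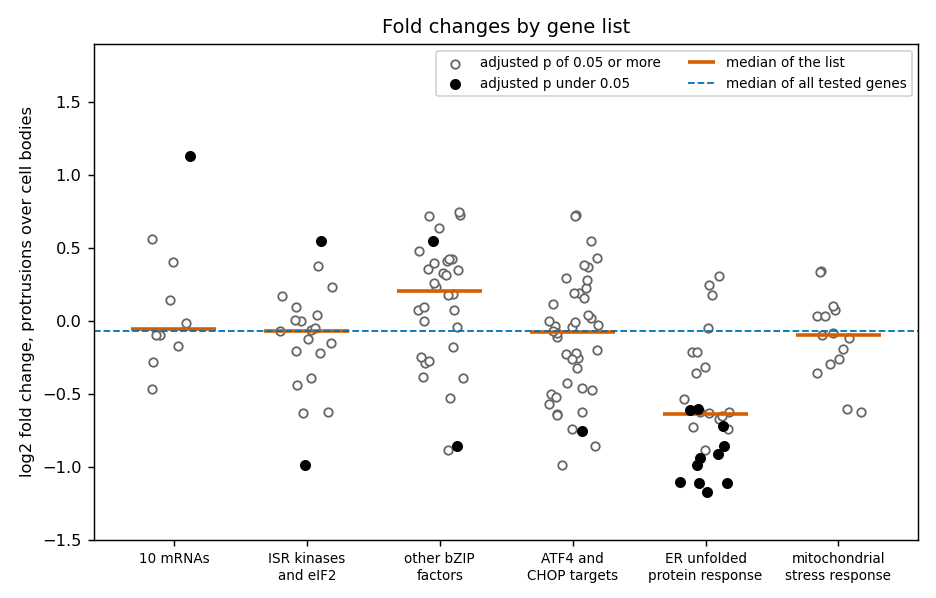
Log2 fold changes of the tested genes of each list, filled where called, with the list's median as an orange bar and the median of all tested genes, -0.07, as a dashed blue line. The ER list lies lowest, with a median of -0.64, and the other lists have medians between -0.09 and 0.21.

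The transcripts of the 10 genes differ in composition, and *Atf5* was at the end of the range. In the longest annotated coding transcript of each gene, G and C made up 61.7% of *Atf5*, more than in 97.8% of 11311 tested genes, whose median was 49.8%. *Trib3* followed at 58.2% and *Chac1* at 57.4%, and *Asns* was the lowest at 47.7%. After each library was corrected for a trend with GC content, the log2 fold change of *Atf5* was 0.80 (adjusted p = 0.0735, and 0.00783 with the block as well), so its call without the block was lost. The part of GC content in the *Atf5* difference was not tested further.

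**Figure D5:**
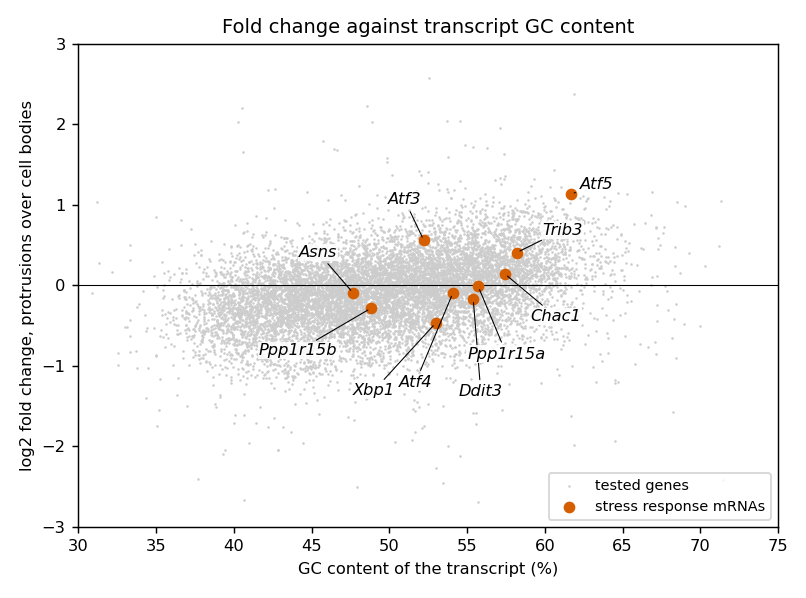
GC content of the longest annotated coding transcript (horizontal, percent) against the log2 fold change (protrusions over cell bodies) of the tested genes in grey and the 10 genes in color, with 9 genes outside the axes. *Atf5*, at 61.7% and 1.13, is the highest of the 10 on both axes.

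Start codons upstream of the coding sequence were common among the 10 genes. The annotated 5′ leader held at least 1 AUG in 8 of the 10, against 53.1% of 10406 tested genes. *Ppp1r15a* had 7, *Atf4* and *Ppp1r15b* had 3 each, and *Atf5* and *Ddit3* had 2 each. *Atf3*, *Xbp1* and *Asns* had 1 each, and *Chac1* and *Trib3* had 0. Leader AUGs were thus found in *Atf5*, which was called without the block. They were also found in *Atf3*, *Atf4*, *Ddit3*, *Xbp1*, *Asns*, *Ppp1r15a* and *Ppp1r15b*, which were not.

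Purine-rich stretches of the 3′ untranslated region are shown since GA-rich regions are known to direct some mRNAs to protrusions. The longest unbroken run of A and G is in capitals, within at most 30 bases:
*Atf5* longest purine run: aaccuagucAGGGAGGGAGGGuuuuaagga
*Trib3* longest purine run: acagcAAAGGAAAAAGAGGGAGAAAuauac
*Atf4* longest purine run: uuauuuuguaguGAAAGua

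The run of *Atf5* was 12 bases long, equal to the median of 10489 tested genes, and lay in a region of 591 bases, against a median length of 1179. That of *Trib3* was 20 bases, longer than in 88.5% of genes, and that of *Atf4* was 5 bases in a region of only 81. A run is a description of the letters and not a site of localization, and *Atf5* was not set apart from other genes by it.

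In mm10, as the table gives positions, the bZIP genes lie apart, *Atf5* at chr7:44812256-44816658, *Atf4* at chr15:80255184-80257545, *Ddit3* at chr10:127290793-127296288, *Atf3* at chr1:191170297-191183333 and *Xbp1* at chr11:5520641-5525993. The targets are *Chac1* at chr2:119351242-119354327, *Trib3* at chr2:152337425-152344060 and *Asns* at chr6:7675171-7693182, and the phosphatase subunit genes are *Ppp1r15a* at chr7:45522917-45526268 and *Ppp1r15b* at chr1:133131166-133139800. Exons of *Atf5* overlap those of *Nup62* and *Il4i1* on the opposite strand by 82 bases. *Nup62*, a nuclear pore gene, was at 73.8 and 66.4 TPM in protrusions, against 72.1 and 64.8 TPM in cell bodies (log2 fold change 0.03, adjusted p = 0.882), and *Il4i1* was at no more than 0.527 TPM in any library. Exons of *Ddit3* overlap *Mars* by 68 bases and those of *Ppp1r15b* overlap *Gm26616* by 640 bases, also on the opposite strand. The library kit marks strand, but no source used here says whether the counting did.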

How the data were processed

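The authors deposited 1 table of 16537 genes, with TPM in each of 4 libraries, made from strand-specific reads aligned to mm10. The study's methods name TopHat 2.0.12, and the submitters' processing notes name STAR, featureCounts and edgeR without versions. The deposited log2 fold change, likelihood ratio score, p-value and FDR are the authors' own comparison and were not used. The authors' mean log2 CPM set the constant of the reads recovered from TPM ratios, which came out whole within 0.001 reads for all 16537 genes.

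Groups and replicate numbers came from the sample titles. limma 3.58.1 under R 4.3.3 was run on log2(TPM + 0.5) of the 11400 genes that averaged 1 TPM or more, with a mean-variance trend. The study treats fractions of a replicate as a pair, and deviations of same-numbered libraries correlated at 0.45 over 11400 genes, so the number was taken to pair them. Values with this block are given where they changed the call of a named gene. Intervals are 95% confidence intervals. The SEs, intervals, counts and fits without a library did not use the pairs unless the block is named. The exact permutation test did not use them either. SDs are over 2 libraries.

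The members and lists were chosen with earlier results of these data known. Named were the 10 members, of each list the 3 genes with the smallest p and up to 3 further called, and the 5 genes nearest to *Atf5*. Values quoted for markers and overlapping genes are outside this rule. Transcript features came from GENCODE M21. The alternatives were other pseudocounts, minimums and variance models, voom on recovered reads, GC correction by lowess (span 0.3), the block, leaving out each library and, chosen after seeing the data, median-centring.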

Additional observations from a re-analysis of the deposited data

How the results depend on the processing

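Each library was left out in turn, and with 1 library left in a fraction the fit assumes that it varies like the others. Genes called then numbered 0 to 14 higher and 0 to 144 lower, the highest counts being those without protrusions replicate 1, while 1899 to 3157 genes had an unadjusted p under 0.05. Called members numbered 0 to 0 higher, eIF2 machinery genes 0 higher and 0 to 1 lower, other bZIP genes 0 in either direction, ATF4 and CHOP targets 0 lower and ER genes 0 to 6 lower. The log2 fold change of *Atf5* was 0.79 to 1.48 and the *Atf5* to *Atf4* difference 1.02 to 1.47. Signs turned for genes that were never called: *Atf3* to -0.041 and *Atf4* to 0.029 without cell bodies replicate 1, *Ddit3* to 0.0032 without protrusions replicate 1, *Chac1* to -0.055 without protrusions replicate 1 and -0.051 without cell bodies replicate 2, *Asns* to 0.13 without protrusions replicate 2 and 0.05 without cell bodies replicate 1, and *Ppp1r15a* to 0.21 and 0.19 without protrusions replicate 1 and cell bodies replicate 2. The ranges were -0.041 to 1.16 for *Atf3*, -0.22 to 0.029 for *Atf4*, -0.34 to 0.0032 for *Ddit3*, -0.055 to 0.34 for *Chac1*, -0.32 to 0.13 for *Asns*, -0.23 to 0.21 for *Ppp1r15a*, -0.65 to -0.28 for *Xbp1*, 0.26 to 0.55 for *Trib3* and -0.50 to -0.07 for *Ppp1r15b*.

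With no minimum on TPM limma called 0 genes in either direction, and so 0 in every list and 0 members, with 3630 of 16537 genes at an unadjusted p under 0.05, and *Atf5* was at 1.13 (adjusted p = 0.110). With no variance trend it likewise called 0, with 3416 genes at an unadjusted p under 0.05, and *Atf5* was at 1.13 (adjusted p = 0.0841). With the replicate block 921 genes were higher and 1513 lower, with 1 member (*Xbp1*, -0.47) lower, 2 higher and 2 lower in the eIF2 machinery, 5 and 3 among bZIP genes, 4 and 10 among targets, 19 ER genes lower and 2 mitochondrial genes lower. Within the pairs of the block the *Atf5* to *Atf4* log2 ratio differed by 0.885 and 1.60.

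With GC correction 102 genes were higher and 180 lower, 0 members, eIF2 machinery, bZIP or target genes were called, 3 ER genes were lower, *Atf5* was at 0.80 and *Chac1* at -0.090. With GC correction and the replicate block 828 were higher and 1290 lower, with 1 member lower (*Xbp1*, -0.56), *Chac1* at -0.090, 2 and 2 in the eIF2 machinery, 2 and 4 among bZIP genes, 1 and 11 among targets, 18 ER genes lower, and 1 and 1 in the mitochondrial list. With voom 775 were higher and 889 lower, with 2 lower in the eIF2 machinery, 3 and 2 among bZIP genes, 1 and 2 among targets, 1 mitochondrial gene lower and *Ppp1r15a* at 0.068. A minimum mean TPM of 5 gave 505 higher and 801 lower, 2 lower in the eIF2 machinery, 2 and 2 among bZIP genes, 1 and 4 among targets and 1 mitochondrial gene lower, and it left out *Atf3* and *Trib3*. Median-centring gave 0 higher in the eIF2 machinery, 2 and 2 among bZIP genes, 1 and 2 among targets and *Ppp1r15a* at 0.068, and a pseudocount of 0.1 gave 0 bZIP genes higher. The causes were not tested. Depth limited *Atf3* most, at 9 to 59 reads per library.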
